A study of Homo sapiens with 42 samples.

Results

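The prostaglandin pathway was followed through 9 genes, taken by name: PLA2G4A, PTGS1, PTGS2, PTGES, PTGIS, PTGDS, HPGD, PTGER2 and PTGER4. They are 9 of the 28266 gene symbols counted in 42 poly(A) RNA-seq libraries of human lung fibroblasts. IMR90 is a fibroblast line that the study used as normal cells. IMR90 ER:RAS cells carry a fusion of the oestrogen receptor with oncogenic RAS. All ER:RAS groups thus express the fusion, and 4-hydroxytamoxifen (4OHT) activates it, inducing oncogene-induced senescence (OIS). ER:RAS cells were given 100 nM 4OHT or DMSO (3 libraries per group), and IMR90 cells 50 µg/ml bleomycin for 24 h, which breaks DNA, or DMSO (4 libraries per group). After 7 days of culture every group, the controls included, received 1 µg/ml doxycycline for 72 h to switch on a control shRNA, COPB2 shRNA 1 or COPB2 shRNA 2, and RNA was taken at day 10. COPB2 is a subunit of the coat of COPI vesicles, and this layout makes 12 groups. The study describes the replicates behind its knockdown analyses as independent experiments, with n = 3 for bleomycin as well. Each IMR90 group here has 4 libraries, and which of them that description covers is not given in the sources used. The labels themselves give only replicate numbers, and the p-values measure the spread between these libraries.

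Prostaglandins are lipid mediators made on demand. Phospholipase A2 releases arachidonic acid from membranes, a cyclooxygenase turns it into prostaglandin H2, and a terminal synthase then sets which prostanoid is made; E prostaglandins act on G protein-coupled receptors of the PTGER family and are inactivated by 15-hydroxyprostaglandin dehydrogenase. In fibroblasts the pathway is known for its response to inflammatory cytokines, growth factors and injury.

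Levels are given as CPM, counts scaled to a common library size by TMM, a normalization between libraries, and differences as log2 fold changes with the standard error (SE) of the edgeR quasi-likelihood fit. Adjusted p-values are Benjamini-Hochberg values over every gene of a fit, and under 0.05 a gene counted as called. Of the 9 genes, 8 passed the filter on low counts, and HPGD did not. Totals per library ran from 13148194 to 23597310 counts. All 10 fibroblast markers looked at (among them COL1A1, COL3A1, THY1 and PDGFRA) were over 1 CPM in each state, while of 6 leukocyte markers only CD68 was. The summed leukocyte markers were 82.1 to 121 CPM in OIS and 55.1 to 106 CPM after bleomycin, against 12.6 to 44.2 CPM with DMSO, and their part in the results below was not tested. CD3E was at 0 in both DMSO groups and in OIS. Of the other lists, 3 of 6 epithelial markers (KRT8, KRT18 and KRT19) were over 1 CPM in each state, 2 of 5 endothelial markers in each state but OIS, where there were 4, and 1 of 6 mast cell and platelet markers. In bulk RNA, fewer cells of a type and less RNA per cell cannot be told apart. COPB2 was lower in all 8 knockdown groups than in the matching control shRNA group, with log2 fold changes from -2.93 to -2.11. CDKN1A, the p21 cell cycle inhibitor, was at 2045 to 7332 CPM in the senescent groups and at 320.2 to 1221 CPM in the DMSO groups.

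The stretches just upstream of 3 genes are shown first, because these genes were called in each of the 6 senescence comparisons, PTGS2 as higher and PTGDS and PTGER2 as lower. Each is the 250 bases before the RefSeq start of the gene on GRCh38.p14, read 5′ to 3′ on the strand of the gene. Capitals mark matches on either strand to a TATA box (TATAAA), to the CCAAT box, to the core of a cAMP response element (TGACG), to the AP-1 site (TGANTCA), to a C/EBP site (TTNNGNAA) or to the kB consensus. PTGIS, called as lower in all 6 as well, was not matched.
PTGS2, chr1:186680424-186680673, minus strand: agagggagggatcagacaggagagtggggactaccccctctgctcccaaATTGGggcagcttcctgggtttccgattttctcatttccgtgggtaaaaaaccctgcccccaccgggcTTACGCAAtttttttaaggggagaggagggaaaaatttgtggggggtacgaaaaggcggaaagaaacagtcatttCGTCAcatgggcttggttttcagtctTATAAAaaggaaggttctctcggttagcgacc
PTGDS, chr9:136977254-136977503, plus strand: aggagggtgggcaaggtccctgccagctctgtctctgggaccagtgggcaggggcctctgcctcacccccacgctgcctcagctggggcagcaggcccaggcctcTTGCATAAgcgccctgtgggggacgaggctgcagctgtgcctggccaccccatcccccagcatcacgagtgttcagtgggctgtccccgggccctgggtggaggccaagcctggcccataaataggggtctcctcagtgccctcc
PTGER2, chr14:52314062-52314311, plus strand: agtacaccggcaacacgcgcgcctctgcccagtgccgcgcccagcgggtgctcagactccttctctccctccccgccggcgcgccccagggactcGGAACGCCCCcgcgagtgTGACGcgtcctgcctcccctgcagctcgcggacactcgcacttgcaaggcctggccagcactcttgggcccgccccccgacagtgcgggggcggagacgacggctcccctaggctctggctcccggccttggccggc

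The PTGS2 window held a TATAAA box at -32 to -27, the reverse of TGACG at -58 to -54, a C/EBP match at -133 to -126 and the reverse of CCAAT at -201 to -197, counted from the start of the gene. The PTGDS window held 1 C/EBP match, at -145 to -138. That of PTGER2 held TGACG at -137 to -133 and a kB match at -155 to -146. The GC content was 50.4% for PTGS2, 68.4% for PTGDS and 74.0% for PTGER2. Among 35114 RefSeq promoters of the same length, TATAAA was present in 10.7%, CCAAT in 32%, TGACG in 21.2%, TGANTCA in 6.57%, TTNNGNAA in 33.2% and the kB consensus in 9.96%. A promoter was found for 8 of the 9 genes. A match describes the letters of a window and is not a binding site.

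In OIS, 5 of the 8 genes tested were called with the control shRNA, 1 higher and 4 lower, where 35.7% of all 14297 genes tested were called, 15.5% as higher and 20.2% as lower. After bleomycin 5 of 8 were called as well, 2 higher and 3 lower, against 31.2% of all 14783 genes tested, 15.4% as higher and 15.8% as lower. The genes were chosen with earlier results of these data known. Their counts beside those of all genes, here and below, are therefore no test of the pathway. PTGS2 was higher and PTGIS, PTGDS and PTGER2 were lower in both models. PTGS1 passed the test in OIS and not after bleomycin, and PTGER4 after bleomycin and not in OIS; tests of these differences are given further on. The median log2 fold change of the 8 genes was -1.51 in OIS and 0.17 after bleomycin, where it was -0.08 and -0.01 over all genes tested. Libraries of senescent and DMSO-treated cells did not overlap for 5 of the 8 genes in either model, against 38.5% of all genes in OIS and 28% after bleomycin.

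**Figure D1:**
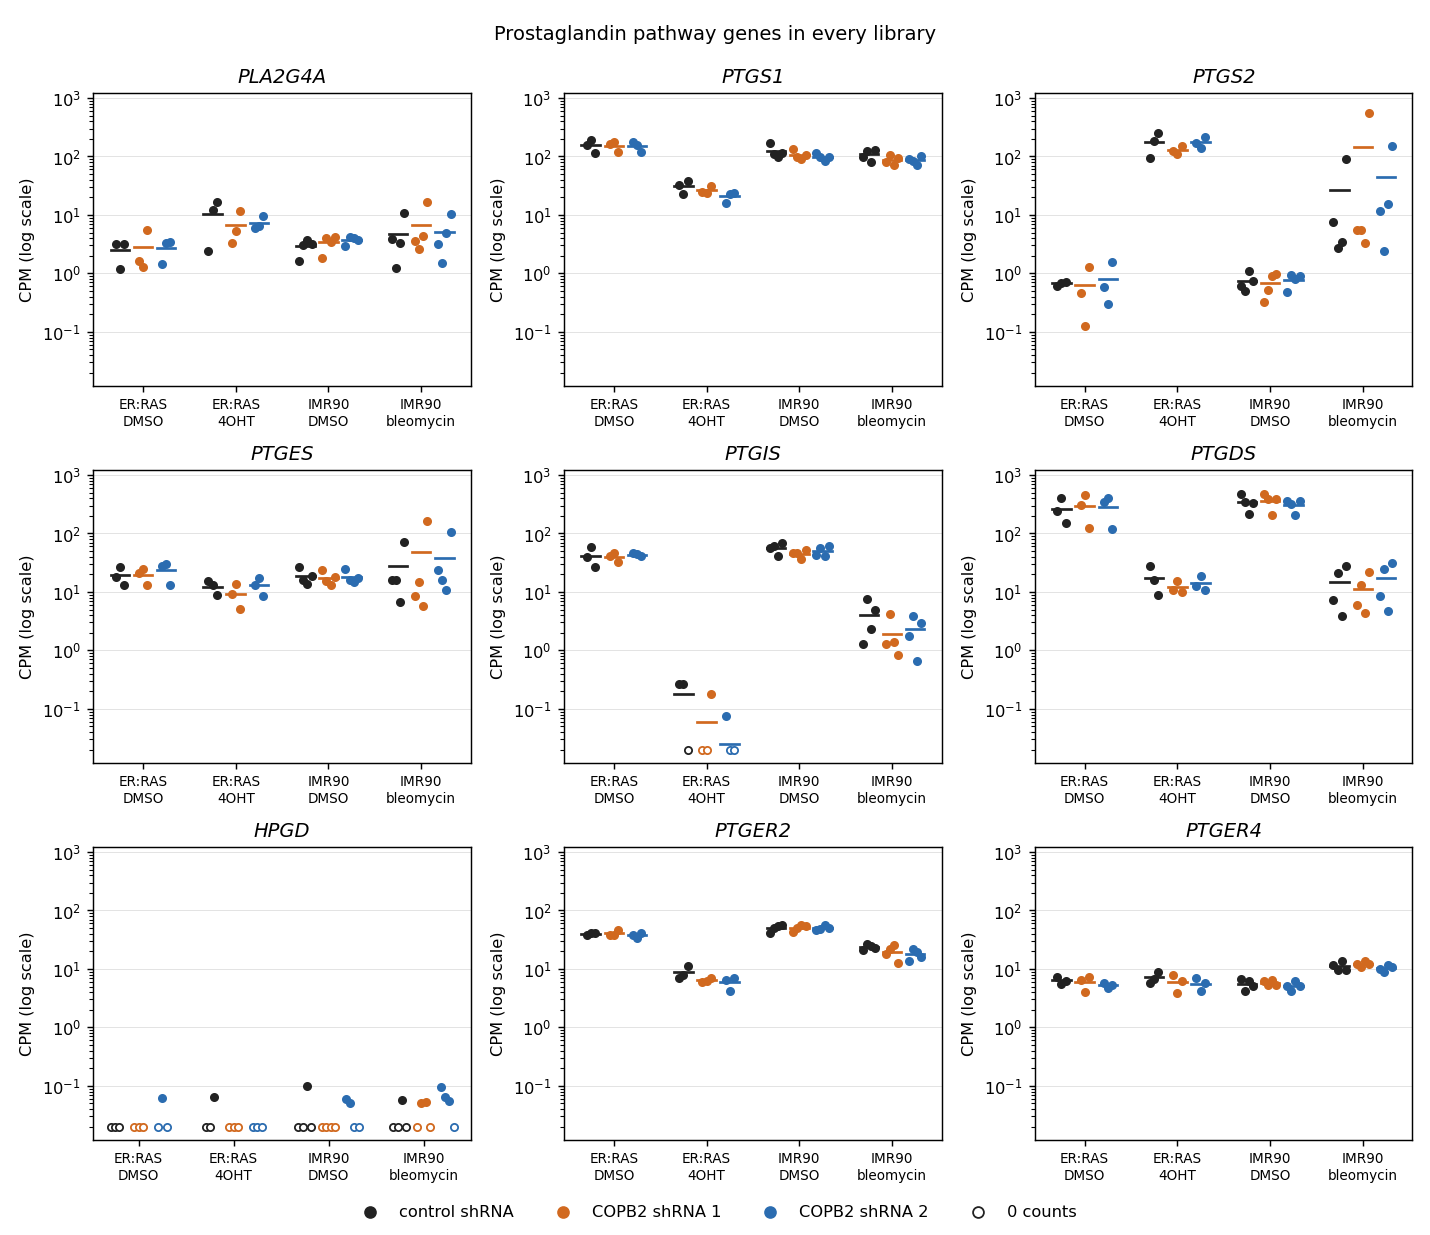
Level in CPM (log scale) of the 9 genes in each of the 42 libraries, by cell line and treatment on the x axis and by shRNA in colour. Points are libraries, bars are group means (not drawn for HPGD), and open points near the bottom of a panel stand for 0 counts. PTGS2 was at 94.9 to 256 CPM in OIS against 0.124 to 1.54 CPM in ER:RAS cells with DMSO, and PTGIS was at 0.271 CPM or less in OIS.

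PLA2G4A encodes cytosolic phospholipase A2 alpha, which frees arachidonic acid from membrane phospholipids (chromosome 1, 186828949 to 186988981, GRCh38.p14). With the control shRNA it was at 3.16, 1.2 and 3.13 CPM in ER:RAS cells with DMSO and at 2.44, 12 and 16.5 CPM in OIS. The first OIS library lay within the DMSO range and the other two were above it. The log2 fold change was 1.95 (SE 0.74, adjusted p 0.0516), which missed the threshold. It passed without OIS replicate 1 (2.45, adjusted p 0.0119) with DESeq2 size factors (2.07, adjusted p 0.0303) and in the DESeq2 Wald test (2.08, adjusted p 0.00706). With COPB2 shRNA 1 and 2 the values were 1.17 (SE 0.73) and 1.36 (SE 0.73), neither of them called. The first was called without replicate 3 of its DMSO group (2.21, adjusted p 0.0395), and the second in a fit of only the groups compared (1.39, adjusted p 0.0440). Replicate numbers paired the libraries of COPB2 shRNA 2, and a fit with the replicate as a block called the gene there (1.39, SE 0.51, adjusted p 0.0317). The pairing held for COPB2 shRNA 1 as well, where 0 of 5 alternatives that kept every replicate, the block included, called it. Leaving out 1 library gave a call in 0 of 6 fits for COPB2 shRNA 2 and in 1 of 6 for the control shRNA. IMR90 cells with DMSO held 1.62, 3.03, 3.77 and 3.16 CPM. After bleomycin the libraries were at 3.93, 1.26, 3.28 and 10.6 CPM, so that replicate 4, and by a small margin replicate 1, were above the DMSO libraries. The bleomycin difference was 0.68 (SE 0.60, adjusted p 0.433), and it was 0.96 and 0.41 with COPB2 shRNA 1 and 2, neither called. Without replicate 4 of the bleomycin group these values were -0.05, -0.02 and -0.25, and without replicate 4 of all IMR90 groups 0.02, 0.15 and -0.21.

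PTGS1 is the cyclooxygenase that most tissues make constitutively, COX-1 (chromosome 9, 122370533 to 122395703). In ER:RAS cells with the control shRNA it was at 158, 193 and 116 CPM with DMSO and at 33, 23.2 and 38.1 CPM in OIS. All 3 OIS libraries were below all 3 DMSO libraries. PTGS1 fell by 2.39 on the log2 scale (SE 0.27, adjusted p 5.19e-06), or 5.24-fold. The difference was -2.60 with COPB2 shRNA 1 and -2.91 with COPB2 shRNA 2, both called. IMR90 libraries with the control shRNA held 168, 109.9, 96.6 and 114 CPM with DMSO and 99.6, 125, 79.7 and 131 CPM after bleomycin. These ranges overlapped. Here the log2 fold change was -0.19 (SE 0.20, adjusted p 0.502).

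PTGS2 encodes COX-2, the inducible cyclooxygenase, and rose the most of the 9 genes in OIS (chromosome 1, 186671791 to 186680423). It lies 149 kb from PLA2G4A and overlaps the antisense gene PACERR, which had 0 to 6 counts per library. The library kit was directional and the alignment named in the study's methods used strand, while the strand setting of the counting step is not given in the sources used here. With the control shRNA its levels were 0.611, 0.697 and 0.722 CPM in ER:RAS cells with DMSO and 94.9, 186 and 256 CPM in OIS. The lowest OIS library was far above the highest DMSO library, although the DMSO values rest on 11 to 15 counts each. The log2 fold change was 7.95 (SE 0.74, adjusted p 8.63e-07), a 248-fold difference, and it was 7.51 (SE 0.73) and 7.60 (SE 0.73) with COPB2 shRNA 1 and 2, both called.

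After bleomycin the rise in PTGS2 was smaller in most libraries and far less even. The control shRNA libraries were at 0.598, 0.505, 1.08 and 0.737 CPM with DMSO and at 7.66, 2.75, 3.51 and 91.4 CPM after bleomycin. With COPB2 shRNA 1 the bleomycin libraries were at 5.58, 5.59, 3.35 and 561 CPM. Those with COPB2 shRNA 2 were at 11.7, 2.37, 15.1 and 152 CPM. Each bleomycin library was above each DMSO library, and replicate 4 stood at 10.1 to 100.4 times the next library of its own group. The log2 fold changes were 5.13 (SE 1.65, adjusted p 0.0208) with the control shRNA, 7.69 (SE 1.79, adjusted p 0.00183) with COPB2 shRNA 1 and 5.82 (SE 1.67, adjusted p 0.00822) with COPB2 shRNA 2. Without replicate 4 of the bleomycin group alone they were 2.67 (adjusted p 0.194), 2.78 (adjusted p 0.0762) and 3.58 (adjusted p 0.0614), and the call was lost in each. With replicate 4 left out of every IMR90 group, chosen after seeing the data, PTGS2 was called in all 3 comparisons, with 2.68 (SE 0.60, adjusted p 0.00446), 3.05 (SE 0.61, adjusted p 0.00183) and 3.68 (SE 0.61, adjusted p 0.000377). For the control shRNA the call was also lost without DMSO replicate 1 (adjusted p 0.0514), 2 (0.0560) or 4 (0.0518), and with no filter on low counts (0.0503).

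**Figure D2:**
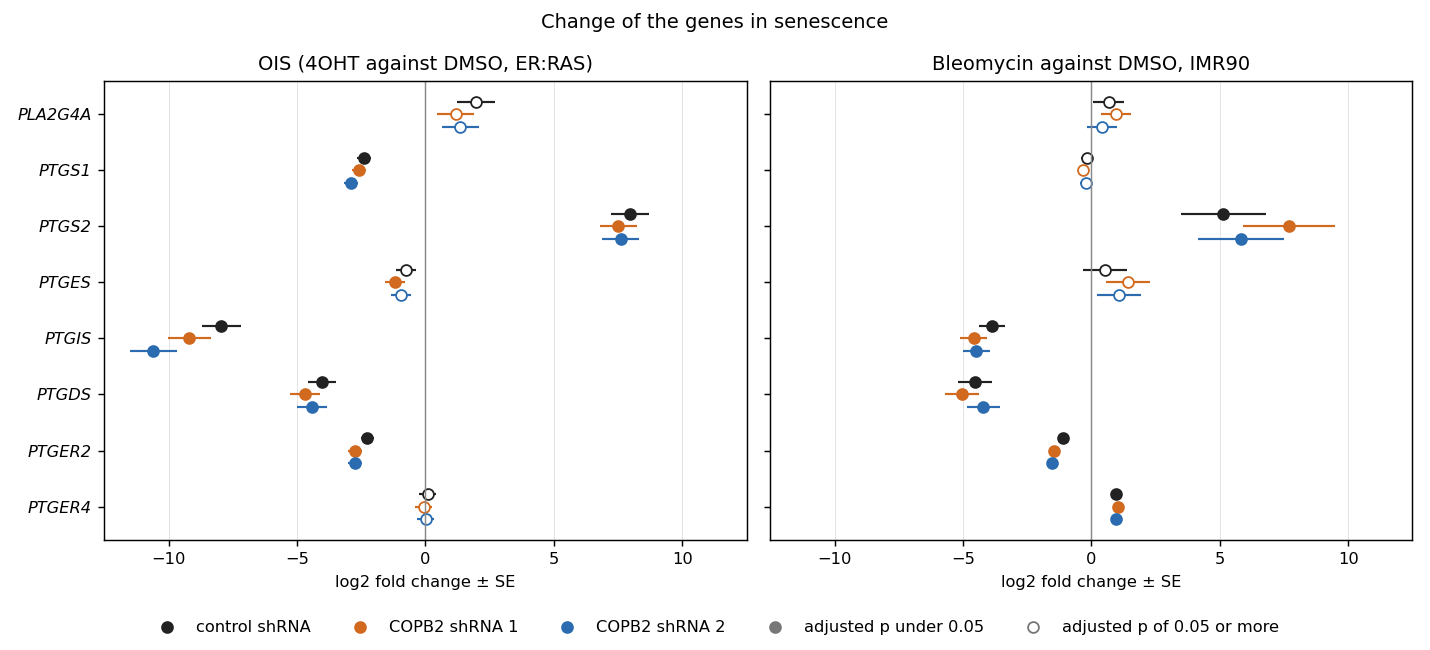
Log2 fold change with its SE (x axis) of the 8 genes tested, for OIS (left) and bleomycin (right) against DMSO under each shRNA. Filled points passed an adjusted p of 0.05. PTGS2 was the gene furthest to the right in both models, at 7.95 and 5.13 with the control shRNA. The PTGIS points of both COPB2 shRNAs in OIS rest on 0 to 3 counts per OIS library and are no bounds.

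The cyclooxygenases were compared per kilobase of exon, so that levels of different genes could be set side by side. The length is that of all annotated exons of a gene together, and the isoforms made were not resolved. Levels compared between genes are therefore approximate. PTGS2 made up 0.0731 to 1.32% of the summed cyclooxygenase level in ER:RAS cells with DMSO and 75.2 to 91.6% in OIS. In IMR90 cells it was 0.253 to 1.16% with DMSO and 2.27 to 86.1% after bleomycin, with a median of 7.19%. The 3 replicate 4 libraries held 42.5, 86.1 and 61.1%, and the highest of the other 9 bleomycin libraries was at 18%. In OIS the larger share came with a lower PTGS1 level as well as a higher PTGS2 level, whereas after bleomycin no difference in PTGS1 passed the test.

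**Figure D3:**
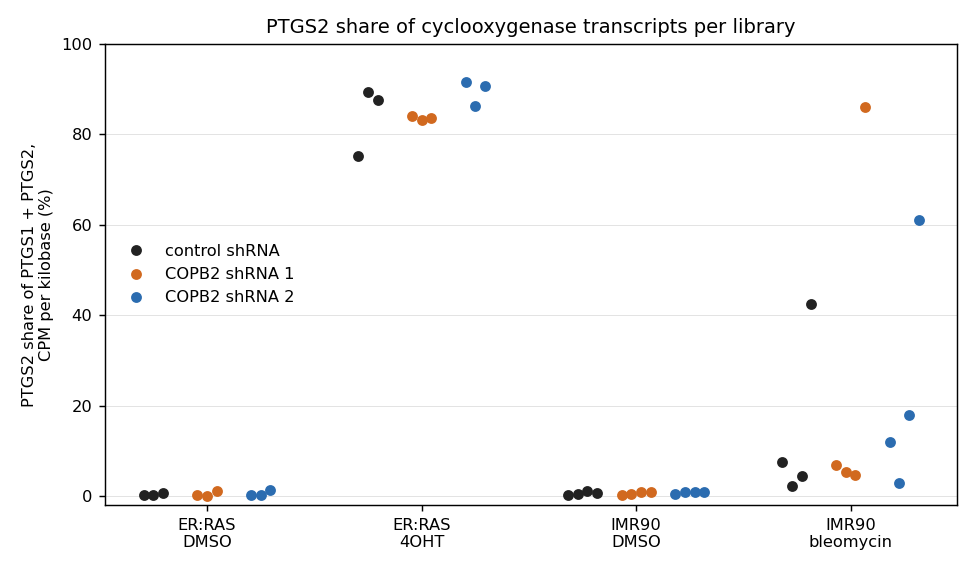
Share of PTGS2 in the sum of PTGS1 and PTGS2, both in CPM per kilobase of exon, in percent (y axis), for every library by treatment (x axis) and shRNA (colour). All 9 OIS libraries were at 75.2% or more, and 9 of the 12 bleomycin libraries at 18% or less.

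PTGES is the inducible, microsomal prostaglandin E synthase, commonly coupled to COX-2 (chromosome 9, 129738349 to 129753042). With the control shRNA it was at 18.3, 27 and 13.4 CPM in ER:RAS cells with DMSO and at 15.2, 13.1 and 8.81 CPM in OIS, ranges that overlapped. The log2 fold change was -0.76 (SE 0.38, adjusted p 0.141). It was -1.18 with COPB2 shRNA 1 (SE 0.38, adjusted p 0.0246), which made 6 of 8 genes called there against 36.9% of all genes. This call was lost without replicate 1 (adjusted p 0.0949) or 3 (0.143) of the OIS group, without replicate 1 (0.0869) or 2 (0.128) of the DMSO group, with DESeq2 size factors (0.0606) and in a fit of only the groups compared (0.0719). It held in the DESeq2 Wald test (adjusted p 0.0367) and with the replicate block, for which the pairing held here too (-1.21, SE 0.18, adjusted p 5.1e-05). With COPB2 shRNA 2 it was -0.95 (SE 0.38, adjusted p 0.0640), where 5 of 8 genes were called against 36.9% of all. The replicate block, for which the pairing held in that comparison, called PTGES there (-0.92, SE 0.18, adjusted p 0.000527) and in all 7 of 8 genes, against 53.1% of all genes.

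The bleomycin libraries of PTGES split by replicate in the same way as those of PTGS2. Control shRNA libraries held 26.9, 16.2, 13.5 and 18.4 CPM with DMSO and 15.8, 16.2, 6.73 and 72.7 CPM after bleomycin. Replicate 4 was at 72.7, 164 and 105 CPM under the 3 shRNAs, and the other 9 bleomycin libraries at 5.74 to 23.5 CPM. The differences were 0.54 (SE 0.85), 1.43 (SE 0.86) and 1.08 (SE 0.85), with none called. Without replicate 4 of all IMR90 groups they were -0.53, -0.86 and -0.13, and still none was called. The same 3 libraries were the highest of their groups for PLA2G4A, at 10.6, 16.5 and 10.5 CPM against 4.91 CPM or less in the others. IL1B, a cytokine of the secretory phenotype, moved with them: 89.1, 591 and 198 CPM in replicate 4 against 8.98 to 40.7 CPM in replicates 1 to 3. CDKN1A was lower in replicate 4, at 2045 to 2398 CPM, than in the others, at 2893 to 4581 CPM. MKI67 and LMNB1, which were lower in senescence, were highest in replicate 4 of each bleomycin group. MKI67 was at 1.87, 1.5 and 0.903 CPM against 0.0657 to 0.923 CPM in the others, and LMNB1 at 3.01, 2.16 and 2.04 CPM against 1.1 to 2.29 CPM. With DMSO the IMR90 libraries held at least 3.68 CPM of MKI67 and 6.95 CPM of LMNB1. ESR1, which the fusion of the ER:RAS cells brings in, was at 0.143 to 0.259 CPM in the replicate 4 libraries and at 1612 CPM or more in OIS. PTGDS was highest in replicate 4 of each bleomycin group, at 27.6, 21.9 and 30.7 CPM, but by at most 1.63 times the next library. With COPB2 shRNA 1, replicate 4 was the lowest library for PTGER2, at 12.4 CPM against 18.2 to 25.2 CPM, and for PTGIS, at 0.846 CPM against 1.30 to 4.15 CPM. PTGER4 lay within the range of the other libraries in all 3 groups. The reason for the levels of replicate 4 was not tested.

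**Figure D4:**
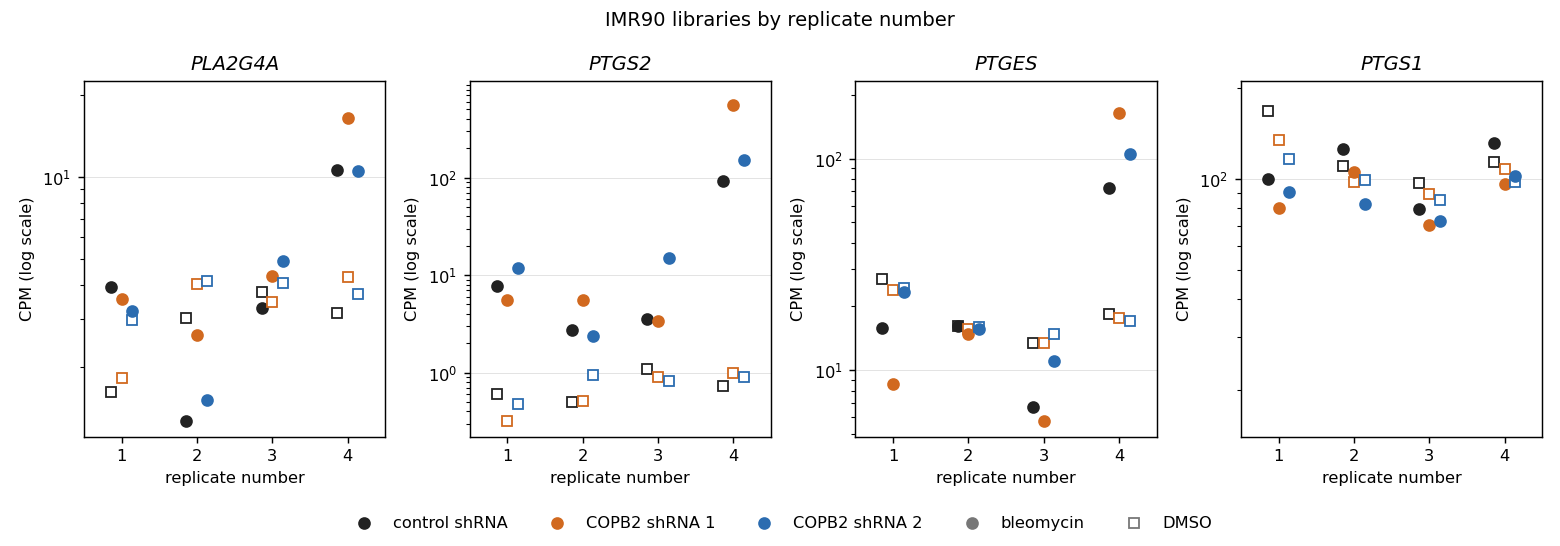
CPM (log scale) of PLA2G4A, PTGS2, PTGES and, for contrast, PTGS1 in the 24 IMR90 libraries by replicate number (x axis), with bleomycin as filled circles, DMSO as open squares and the shRNA as colour. Replicate 4 of the bleomycin groups was at 91.4 to 561 CPM for PTGS2 and at 95.8 to 131 CPM for PTGS1. Replicate numbers name libraries and have no order.

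PTGIS, the prostacyclin synthase, was nearly lost in OIS and fell strongly after bleomycin (chromosome 20, 49503874 to 49568137). With the control shRNA it was at 39.5, 57.8 and 26.6 CPM in ER:RAS cells with DMSO and at 0.271, 0.264 and 0 CPM in OIS, the latter from 3, 4 and 0 counts. No OIS library came near the DMSO range. The log2 fold change was -7.95 (SE 0.76, adjusted p 1.13e-06), and under both COPB2 shRNAs, where OIS libraries held 0 to 3 counts, PTGIS was at least 189-fold and 189.8-fold lower than with DMSO, taking 3 counts per library as the floor (adjusted p 5.30e-07 and 3.53e-07). IMR90 libraries with the control shRNA were at 56.2, 60.8, 40.8 and 69.5 CPM with DMSO and at 1.29, 7.46, 2.30 and 4.98 CPM after bleomycin. Bleomycin libraries were thus all below the DMSO libraries and all above the OIS libraries. PTGIS fell by 3.87 on the log2 scale (SE 0.51, adjusted p 5.99e-06), or 14.6-fold. The bleomycin differences under COPB2 shRNA 1 and 2 were -4.59 (SE 0.53) and -4.48 (SE 0.53), both called.

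PTGDS makes prostaglandin D2 and also carries lipids outside the cell (chromosome 9, 136977504 to 136981742). Per kilobase it was the highest of the 9 genes in both DMSO groups with the control shRNA. Its levels were 239, 409 and 149.6 CPM in ER:RAS cells with DMSO and 27.7, 15.7 and 8.93 CPM in OIS. In IMR90 cells they were 473, 341, 218 and 337 CPM with DMSO and 7.28, 21.2, 3.85 and 27.6 CPM after bleomycin. In both models every senescent library was below every DMSO library. PTGDS fell by 4.03 on the log2 scale in OIS (SE 0.56, adjusted p 4.23e-05) and by 4.54 after bleomycin (SE 0.65, adjusted p 1.61e-05), which is 16.3-fold and 23.3-fold. Under the COPB2 shRNAs the OIS values were -4.69 and -4.42 and the bleomycin values -5.03 and -4.21, all called. A further gene annotated on the same strand overlaps its exons on GRCh37 and was not listed in the table, so reads of both cannot be told apart here.

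HPGD, the 15-hydroxyprostaglandin dehydrogenase that starts prostaglandin breakdown, was at the limit of detection (chromosome 4, 174490175 to 174522893). It had 0 counts in 31 of the 42 libraries, at most 2 counts in any, and 13 counts in all. A count of 0 allows up to 0.110 to 0.271 CPM, depending on the library. No difference between groups could be detected at this depth.

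PTGER2 and PTGER4, the EP2 and EP4 receptors of prostaglandin E2, both signal through cAMP, and they did not move alike. PTGER2 (chromosome 14, 52314312 to 52328598) was at 37.6, 40.4 and 40.8 CPM in ER:RAS control shRNA cells with DMSO and at 7.13, 7.86 and 11.2 CPM in OIS. The IMR90 libraries were at 41.7, 50.8, 53.8 and 56.4 CPM with DMSO and at 21.4, 26.7, 24.7 and 23.2 CPM after bleomycin. Neither model had an overlap. PTGER2 fell by 2.26 on the log2 scale in OIS (SE 0.27, adjusted p 9.63e-06), or 4.81-fold, and by 1.11 after bleomycin (SE 0.17, adjusted p 4.05e-05), or 2.16-fold. Under COPB2 shRNA 1 and 2 the values were -2.76 and -2.75 in OIS and -1.44 and -1.55 after bleomycin, all called.

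PTGER4 (chromosome 5, 40679915 to 40746800) was at 7.34, 5.58 and 6.25 CPM in ER:RAS control shRNA cells with DMSO and at 5.78, 6.81 and 8.93 CPM in OIS. These ranges overlapped and the log2 fold change was 0.08 (SE 0.33, adjusted p 0.893). In IMR90 cells the libraries were at 6.70, 4.17, 6.26 and 5.05 CPM with DMSO and at 11.5, 9.46, 13.6 and 9.49 CPM after bleomycin. Here all bleomycin libraries were the higher ones. PTGER4 rose by 0.96 (SE 0.16, adjusted p 0.000114), or 1.94-fold, and by 1.02 and 0.97 under COPB2 shRNA 1 and 2. In those bleomycin comparisons 5 of 8 genes were called each, against 35.2% and 40% of all genes.

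Whether both models differed was tested with an interaction over all 42 libraries, as the OIS change minus the bleomycin change with the control shRNA. In it 3 of the 8 genes were called, all as lower in OIS, against 20.3% of 15299 genes in both directions and 12.1% as lower. They were PTGS1 (-2.14, SE 0.32, adjusted p 5.50e-06), PTGIS (-4.05, SE 0.89, adjusted p 0.00108) and PTGER2 (-1.10, SE 0.28, adjusted p 0.00388). PTGS2 had 2.87 (SE 1.93, adjusted p 0.340). It was called without replicate 4 of all IMR90 groups (5.40, SE 0.90, adjusted p 7.73e-05) and also when only replicate 4 of the bleomycin group was left out (5.37, adjusted p 0.0401). PTGER4 had -0.82 (SE 0.31, adjusted p 0.0619), although it passed in 1 model alone; it passed without OIS replicate 3 (-1.01, adjusted p 0.0304) or IMR90 DMSO replicate 1 (-0.92, adjusted p 0.0428). PTGDS had 0.58 (SE 0.84, adjusted p 0.718). The models also differ in cell line, and these cannot be told apart. Before senescence, with DMSO and the control shRNA, none of the 8 genes was called between ER:RAS and IMR90 cells, and 0.346% of all genes were. At an unadjusted p under 0.05 there were 0 of 8, against 11.5% of all genes. The PTGER2 libraries did not overlap, at 37.6 to 40.8 CPM in ER:RAS and 41.7 to 56.4 CPM in IMR90 cells (-0.36, adjusted p 0.461). The share of all genes without overlap is not given for this comparison, so no line difference is read from it.

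The COPB2 knockdown groups were compared with the control shRNA groups for RNA levels only. Proteins and prostaglandins were not measured in these libraries, so whether the pathway depends on the COPI coat was not tested. None of the 8 genes was called in any of the 8 knockdown comparisons by edgeR, nor in any alternative that gave an adjusted p for it. The DESeq2 Wald test gave none for PTGS2 in the IMR90 knockdown comparisons. Few genes were called there in all: 0.00699% and 0.00699% for COPB2 shRNA 1 and 2 in ER:RAS cells with DMSO, 0.14% and 0.224% in OIS, 0.00676% and 0.00676% in IMR90 cells with DMSO, and 0.00676% and 0.0744% after bleomycin. At an unadjusted p under 0.05 there were 3 of 8 for COPB2 shRNA 2 in OIS, 1 for each COPB2 shRNA after bleomycin and 0 in the other comparisons. Over all genes the same threshold was passed by 4.48% for COPB2 shRNA 2 in OIS, and by 1.41% and 6.74% for COPB2 shRNA 1 and 2 after bleomycin. In OIS the 3 were PTGS1 (-0.60, SE 0.26, p 0.0336, adjusted p 0.965), PTGIS (-2.60, SE 1.21, p 0.0477, adjusted p 1.00) and PTGER2 (-0.59, SE 0.26, p 0.0396, adjusted p 1.00). After bleomycin it was PTGIS with COPB2 shRNA 1 (-1.04, SE 0.50, p 0.0485, adjusted p 1.00) and PTGER2 with COPB2 shRNA 2 (-0.44, SE 0.17, p 0.0175, adjusted p 0.700).

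In OIS the fitted difference was below 0 for 8 of the 8 genes with COPB2 shRNA 1 and for 7 with COPB2 shRNA 2, with medians of -0.49 and -0.44 where all genes had -0.07 and -0.08. Both comparisons share the control shRNA libraries. Of 20 other prostanoid pathway genes tested, described further on, 18 and 19 were below 0 too, with medians of -0.24 and -0.22. The share of all genes below 0 is not given here. PTGS2 in OIS was at 122, 110.2 and 152 CPM with COPB2 shRNA 1 and at 167, 139 and 219 CPM with COPB2 shRNA 2. Both sets lay within the control range of 94.9 to 256 CPM. The differences from the control shRNA were -0.51 (SE 0.53) and -0.05 (SE 0.53). After bleomycin that of PTGS2 was 2.47 (SE 1.35, adjusted p 1.00) with COPB2 shRNA 1, and 0.05 (SE 0.53) without replicate 4 of all IMR90 groups. The interaction of knockdown with senescence was called for 0 of 8 genes and for 0.0% of all genes in each of the 4 tests. By an unadjusted p under 0.05 there were 0 of 8 as well, and the SEs of up to 2.22 on the log2 scale leave wide limits for PTGS2.

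**Figure D5:**
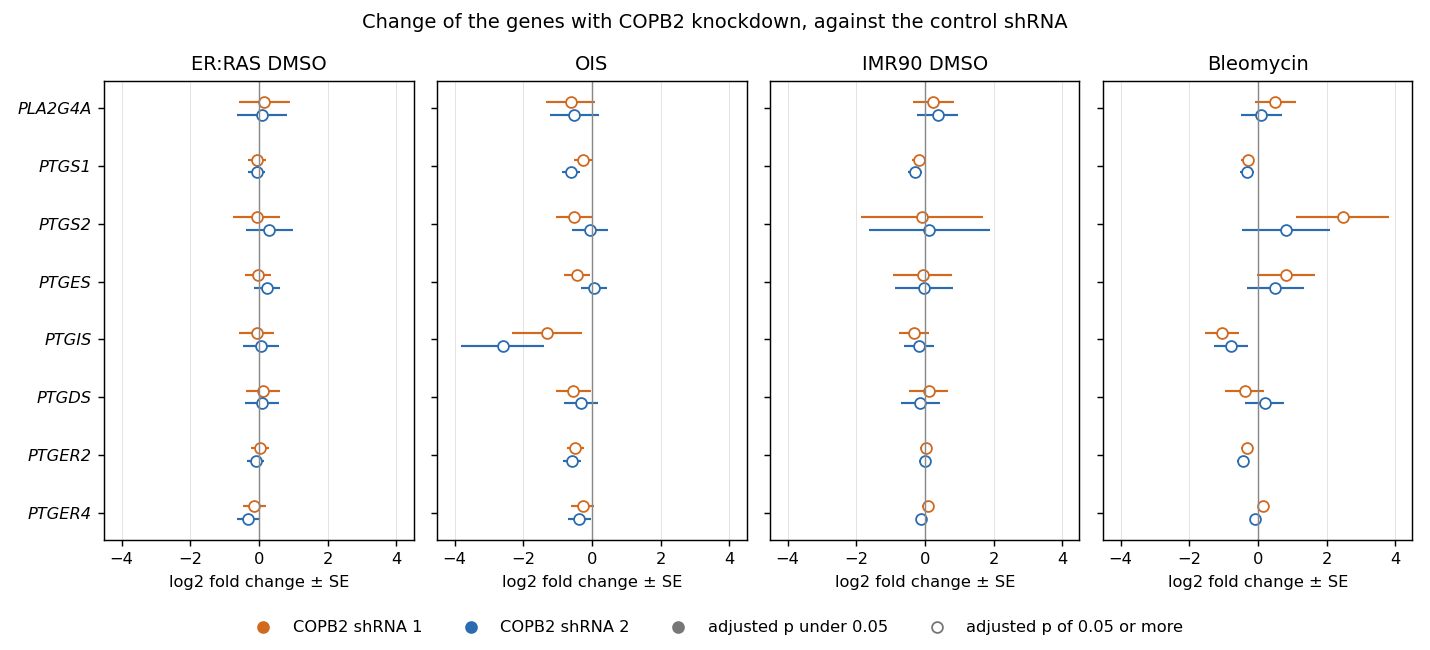
Log2 fold change with its SE (x axis) of the 8 genes by COPB2 shRNA, relative to the control shRNA, in the 4 cell states. Every point is open because no adjusted p was under 0.05. The widest error bars were those of PTGS2 in IMR90 cells, with an SE of 1.78 for COPB2 shRNA 1 with DMSO.

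Levels of different genes were ranked per kilobase of exon in the control shRNA groups, with the same limit from isoforms, so that close ranks are uncertain. In ER:RAS cells with DMSO the order ran from PTGDS (98.0 ± 48.6 CPM per kilobase, SD, n = 3) over PTGS1 (26.9 ± 6.69), PTGER2 (16.1 ± 0.722), PTGES (10.3 ± 3.64) and PTGIS (7.41 ± 2.82) to PTGER4 (1.80 ± 0.251), PLA2G4A (0.867 ± 0.389) and PTGS2 (0.123 ± 0.0106). Only PTGES and PTGIS overlapped among neighbours in this order. In OIS PTGS2 came first (32.6 ± 14.7), clear of PTGES (6.53 ± 1.71), PTGDS (6.43 ± 3.51), PTGS1 (5.44 ± 1.31), PLA2G4A (3.58 ± 2.49) and PTGER2 (3.54 ± 0.883), each of which overlapped the next. In IMR90 cells with DMSO PTGDS again led (126 ± 38.5, n = 4), while PTGS1 and PTGER2, PTGIS and PTGES, and PTGER4 and PLA2G4A overlapped. After bleomycin PTGS1 (18.8 ± 4.07) and PTGES (14.7 ± 16) were the highest, and every neighbour down to PTGIS (0.719 ± 0.498) overlapped. The place of PTGES rests on replicate 4: without it PTGES was at 6.82 ± 2.83 CPM per kilobase (n = 3), below PTGER2 at 9.84 ± 1.09, and PTGS2 was at 0.846 ± 0.482 in place of 4.8 ± 7.92.

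Of 27 other genes of prostanoid synthesis, transport, breakdown and reception, 20 were tested in ER:RAS cells, and 8 of them were called in OIS with the control shRNA, 6 higher and 2 lower, a share of 40% beside the 35.7% of all genes. After bleomycin 6 of 21 were called, 4 higher and 2 lower, or 28.6% beside 31.2% of all genes. Both shares are near the background. AKR1B1, an aldose reductase that can make prostaglandin F2 alpha, rose to 1250.2 ± 674 CPM (SD, n = 3) from 271 ± 77.1 CPM in OIS (2.10, SE 0.42, adjusted p 0.00107) and to 619 ± 167 CPM (n = 4) from 164 ± 55.4 CPM after bleomycin (1.89, SE 0.32, adjusted p 9.60e-05). AKR1C3, another such enzyme, fell from 6.39 ± 1.26 to 0.333 ± 0.207 CPM in OIS (-4.39, SE 0.42, adjusted p 1.23e-06) and from 6.71 ± 0.491 to 2.73 ± 0.660 after bleomycin (-1.33, SE 0.28, adjusted p 0.000897). It has near-identical relatives, so its counts are uncertain. Among the others in OIS, thromboxane synthase TBXAS1 (1.31), the carbonyl reductase CBR1 (1.25) and the prostaglandin reductase PTGR1 (0.69) were higher and the phospholipase PLA2G6 (-1.29) was lower. PTGR2, a reductase of the breakdown route, was higher after bleomycin (0.80, adjusted p 0.0170).

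Under COPB2 shRNA 1 and 2 the same list had 8 of 20 called each in OIS (40%, beside 36.9% of all genes under either shRNA) and 9 of 21 each after bleomycin (42.9%, beside 35.2% and 40% of all genes). The sum over this list and that of the lipoxygenases was also taken without replicate 4 of all IMR90 groups. After bleomycin it fell from 8 to 5 with the control shRNA and from 11 to 5 under each COPB2 shRNA. The share of all genes called without replicate 4 is not given, so these sums cannot be set against it. Of 14 genes of the lipoxygenase and leukotriene branch, which uses the same arachidonic acid, 7 were tested in ER:RAS cells and 3 were called in OIS, 2 higher and 1 lower. After bleomycin 2 of 6 were called, both lower. These shares of 42.9% and 33.3% stand beside 35.7% and 31.2% of all genes. Among them LTA4H, the leukotriene A4 hydrolase, was at 125 ± 6.64 CPM after bleomycin and at 151 ± 6.35 with DMSO (-0.31, SE 0.11, adjusted p 0.0421).

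The genes whose log2 CPM followed a member most closely over the 42 libraries were sought for PTGS2, PTGIS and PTGDS among 12942 genes. For PTGS2 these were CCL20 (Pearson r 0.988), NRG1 (0.979) and CXCL5 (0.976), encoding a pair of chemokines and a growth factor. For PTGIS they were BMP4 (0.986), FBLN1 (0.986) and PKDCC (0.983), and for PTGDS LTBP4 (0.978), PCOLCE (0.976) and CPXM1 (0.974). The libraries share 12 groups, so such values describe mostly the differences between groups. By Spearman's rho only LTBP4 (0.953) stayed among the 3 closest genes, at rank 2.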

How the data were processed

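Poly(A) RNA of 42 libraries in 12 groups was sequenced by the authors, who deposited raw read counts per gene symbol. The submitters' processing notes name DRAGEN, STAR 2.7.8a, DESeq2 1.32.0 and hg38, whereas the study's methods name an older aligner, counter and build, so which steps made the deposited counts is uncertain. Gene positions and promoters are from RefSeq on GRCh38.p14, exon lengths from GENCODE release 44 lifted to GRCh37, and none was converted between builds. The table held 28266 symbols, 3476 of them without a count, and 0 columns were left unused.

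Counts were tested in R 4.3.3 with edgeR 4.0.16 (limma 3.58.1): filterByExpr, TMM and the robust quasi-likelihood F-test, two-sided, with Benjamini-Hochberg adjustment over all genes, fitted over the 18 ER:RAS libraries, the 24 IMR90 libraries or, between lines, all 42. The SE is the log2 fold change over the root of F, and log2 CPM used a prior count of 2. CPM came from the 42-library fit. A floor of 3 counts was used. The floors cover counting error only, while the SEs also take in the spread between libraries. Scripts were tested on simulated data.

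The 9 genes and all lists were chosen with earlier results of these data known. Every member was named; genes of the other pathway lists were named where called, with no overlap between groups and, in the higher one, 100 counts or more on average. The closest genes were the 3 with the highest Pearson r among 12942 genes with a mean of at least 1 CPM. Replicate numbers paired libraries, by correlated deviations from the group means (r over 0.1 in every pair), in OIS under COPB2 shRNA 1 and 2, in IMR90 DMSO for COPB2 shRNA 2 and in both bleomycin knockdown comparisons. Alternatives were DESeq2 1.42.0 size factors and Wald test, no filter, a replicate block, only the groups compared and leaving out each replicate; leaving out replicate 4 of every IMR90 group was chosen after seeing the data.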

Additional observations from a re-analysis of the deposited data

Results flagged for a closer look

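In groups of 4 libraries the distance of the highest or lowest library from its nearest neighbour was divided by the group's range and set against Dixon's critical value. For the 8 genes that passed the filter on low counts, 8 of 48 gene and group combinations exceeded it. These combinations share libraries, and the normal values that the critical value assumes were not checked. No chance rate was therefore set beside the count. For PTGS2 it was replicate 4 after bleomycin, at 91.4 CPM with the control shRNA, 561 CPM with COPB2 shRNA 1 and 152 CPM with COPB2 shRNA 2. PTGES had the same libraries apart, at 72.7, 164 and 105 CPM, and PLA2G4A that of COPB2 shRNA 1, at 16.5 CPM where the next library was at 4.30 CPM. PTGIS was set apart in replicate 2 of bleomycin with COPB2 shRNA 1, at 4.15 CPM against 1.38 CPM in the next. HPGD was at 0.0978 CPM in replicate 3 of IMR90 DMSO with the control shRNA and at 0.0575 CPM in replicate 3 of bleomycin with the control shRNA, from 2 counts and 1 count where the other libraries had 0. With all others at 0 such a library exceeds the critical value by construction, so these are values only and are left out of the count above. The causes were not tested.

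The OIS change differed from the bleomycin change by the test of the difference itself for PTGS1 (-2.14), PTGIS (-4.05) and PTGER2 (-1.10, log2 scale).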

How the results depend on the processing

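Of 2277 refitted results of the 8 genes, 2248 kept their side of the threshold, 13 lost the call and 16 gained it. Of the called results, 0 reversed their direction. Uncalled results could change sign. For PTGES after bleomycin with the control shRNA, 0.54 became -0.53 without replicate 4 of all IMR90 groups. The replicate block raised the genes called in OIS minus bleomycin from 3 to 5, adding PTGS2 (4.21, adjusted p 0.0263) and PTGER4 (-0.80, adjusted p 0.00533), and in OIS with the control shRNA it added PLA2G4A (1.73, adjusted p 0.0117) and PTGES (-0.73, adjusted p 0.00327); the numbers did not pair the libraries in either. Apart from these and the values given for COPB2 shRNA 2 in OIS, the block changed no call of the 8 genes. The genes called were also summed over the list of other prostanoid genes and that of the lipoxygenases. Fitting only the groups compared moved this sum from 11 to 7 in OIS and from 8 to 4 after bleomycin with the control shRNA. With COPB2 shRNA 2 it moved from 11 to 2 after bleomycin. Without replicate 4 of all IMR90 groups these counts after bleomycin were 5, 5 and 5. Leaving out 1 replicate gave 7 to 11 for COPB2 shRNA 1 and 6 to 11 for COPB2 shRNA 2 after bleomycin. Member counts then ran from 5 to 7 in the OIS comparisons, 4 to 5 after bleomycin and 3 to 4 for the difference of models. The share of all genes called is not given for the refits of this paragraph, so these counts cannot be set against it. The DESeq2 Wald test gave no adjusted p for PTGS2 in the IMR90 comparisons. DESeq2 size factors moved the median of all genes in OIS with the control shRNA from -0.08 to 0.04. The causes were not tested. Depth limits HPGD and PTGIS in OIS.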
